A study of Mus musculus with 6 samples.

Results

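The miR-148 and miR-152 family comprises miRNAs from 3 hairpins whose 3p strands carry the same seed, the bases that choose which messenger RNAs a miRNA represses. Its members were taken by name, as every mature strand of miR-148a, miR-148b or miR-152 in the count tables. This gave 5 of 622 mature miRNA names: mmu-miR-148a-3p, mmu-miR-148b-3p, mmu-miR-148b-5p, mmu-miR-152-3p and mmu-miR-152-5p, written below without the prefix for mouse. Rows of a repeated name were chosen by their total over all 6 libraries, the only measured value in the rule, and each of the 5 had 1 row. miR-148a-5p was not analysed here. Small RNA had been sequenced from brain of the inbred mouse strain C57BL/6J. The sham-operated group, whose label gives no treatment, held libraries 3, 6 and 7. The cerebral ischemia-reperfusion group, labelled GCI, held libraries 1, 2 and 3 from animals whose carotid arteries were tied on both sides for 20 minutes. The sources used here do not give the age of the mice, the brain region or the length of reperfusion. Nothing in the labels says that each library came from its own animal, so p-values measure only how far these samples spread, which may be technical.

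A miRNA hairpin yields a 5p and a 3p strand. One of them, the guide, is usually kept in an Argonaute protein, where its seed pairs with sites in target messenger RNAs, while the passenger strand is mostly degraded. In this family the 3p strand is the guide. The family is best known for repressing Dnmt1, the enzyme that copies DNA methylation to the new strand after replication, and miR-148a also represses the LDL receptor and the cholesterol transporter Abca1 in liver. miR-148a is abundant in liver and in plasma cells.

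The 3 guide strands are printed because their shared and differing bases define the family. Sequences are 5′ to 3′ from RefSeq (GRCm38.p6), and capitals mark the seed, bases 2 to 8 counted from the 5′ end.
miR-148a-3p: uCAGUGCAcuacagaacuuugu
miR-148b-3p: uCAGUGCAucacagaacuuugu
miR-152-3p: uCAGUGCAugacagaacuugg

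Of the 622 listed names, 519 had a RefSeq sequence, and 3 of these carried CAGUGCA at bases 2 to 8, namely the 3 guides. miR-148a-3p and miR-148b-3p are 22 bases long and identical at 20 of them, with the differences C9U and U10C counted from the 5′ end. miR-152-3p, with 21 bases, differs from miR-148b-3p by C10G and U20G, and from miR-148a-3p by C9U, U10G and U20G. The guides thus first differ just behind the seed. The sources used here do not give the number of mismatches allowed in read mapping, so some reads of one guide could have been counted for another.

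The passenger strands are printed for contrast, with bases 2 to 8 in capitals again.
miR-148b-5p: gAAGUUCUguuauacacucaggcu
miR-152-5p: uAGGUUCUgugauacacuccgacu
They do not carry the family seed and differ from each other within these bases.

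The hairpins lie on different chromosomes. Mir148a, of 99 bases, lies on the minus strand of chromosome 6 (GRCm38.p6, 51269812 to 51269910), outside annotated genes, and the nearest gene in GENCODE vM21 that is no miRNA was the noncoding Gm32479 at 13622 bp. Mir148b lies on the plus strand of chromosome 15 (103285125 to 103285221), in an intron of Copz1. Mir152 lies on the plus strand of chromosome 11 (96850393 to 96850465), in an intron of Copz2. Copz1 and Copz2 encode alternative zeta subunits of the COPI coat, which carries vesicles from the Golgi back to the endoplasmic reticulum. Both intronic hairpins have the orientation of their host gene.

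The longest annotated Dnmt1 3′ UTR in GENCODE vM21, of 312 bases, holds the complement of the family seed, TGCACTG, 1 time, with its first base at position 23 of the UTR. The site is shown because Dnmt1 is the target for which the family is named most often, with the seed match in capitals, at chromosome 9, 20907491 to 20907513 on the minus strand (GRCm38).
Dnmt1 site: acccagagccccacgTGCACTGa
The match is followed by an A, as in the site type through which miRNAs repress most strongly. Of 16384 genes whose longest 3′ UTR has at least 312 bases, 4.04% held TGCACTG on the sense strand within the first 312. The match is a description of the sequence, and Dnmt1 itself was not measured in these small RNA libraries.

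The deposited tables hold read counts. With 1 row per name, libraries held 1423905 to 2023475 counts. Counts were scaled by TMM, which aligns libraries on the bulk of their miRNAs, and are given as CPM, the counts scaled to a common library size. A count of 0 allows up to 3 counts, which before TMM scaling was 1.48 to 2.11 CPM in the 6 libraries. The brain label was checked against markers: the neuronal miR-124-3p, miR-9-5p, miR-128-3p and miR-138-5p summed to 90698 to 107269 CPM in sham and 84978 to 95852 CPM in GCI, mostly from miR-9-5p. Of the muscle list, miR-208a-3p, a heart miRNA, was not analysed here, and miR-1a-3p, miR-133a-3p and miR-206-3p together reached 10025 to 20235 CPM over the 6 libraries, mostly from miR-1a-3p. miR-206-3p, of skeletal muscle, stood apart at 1432 CPM in GCI library 1, where miR-148a-3p and miR-152-3p were highest, against 92.9 to 226 CPM in the other 5 libraries. In that library miR-133a-3p, at 60.2 CPM, lay within its sham range of 40.9 to 80.1 CPM. miR-1a-3p had 18743 CPM there, against 11191 to 16497 CPM in sham. In such bulk tissue, fewer cells of a type and less RNA per cell cannot be told apart.

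miR-148a-3p was the family's abundant member. Sham libraries 3, 6 and 7 had 7269, 6976 and 6550 CPM, and GCI libraries 1, 2 and 3 had 22254, 5608 and 16318 CPM. GCI libraries 1 and 3 lay above every sham library, GCI library 2 lay below every one, and the groups overlapped. In order of level among the 622 names, miR-148a-3p ranked 23rd, 25th and 27th in the sham libraries, and 11th, 29th and 13th in the GCI libraries. The group means were 6932 ± 362 CPM in sham and 14727 ± 8436 CPM in GCI (SD, n = 3 each), so the spread within GCI exceeded the difference between the means. The log2 fold change of 1.09 ± 0.41 (SE), 2.12-fold, did not pass over all miRNAs (adjusted p = 0.231, unadjusted p = 0.0265, edgeR quasi-likelihood test with Benjamini-Hochberg adjustment).

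miR-152-3p had about the same pattern at a far lower level. Sham libraries 3, 6 and 7 had 108, 93.1 and 116 CPM, and GCI libraries 1, 2 and 3 had 400, 111 and 248 CPM. Again GCI libraries 1 and 3 were above all sham libraries while GCI library 2 lay within the sham range. The means were 105 ± 11.4 CPM in sham and 253 ± 145 CPM in GCI (SD, n = 3 each). The log2 fold change of 1.26 ± 0.40, 2.40-fold, did not pass by edgeR (adjusted p = 0.157, unadjusted p = 0.0108, Benjamini-Hochberg over 440 miRNAs). DESeq2 gave 1.32 with an adjusted p of 0.0372, and called 5% of the 440 miRNAs as higher in GCI.

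miR-148b-3p differed from the other guides in which library was high. Sham libraries 3, 6 and 7 had 214, 191 and 186 CPM, and GCI libraries 1, 2 and 3 had 199, 178 and 543 CPM. Only GCI library 3 lay above the sham range, and GCI library 1, the highest for the other guides, lay within it. The means were 197 ± 15.2 CPM in sham and 307 ± 205 CPM in GCI (SD, n = 3 each). The log2 fold change was 0.64 ± 0.40 (adjusted p = 0.412, edgeR, Benjamini-Hochberg), and without GCI library 3 it was −0.0042.

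**Figure D1:**
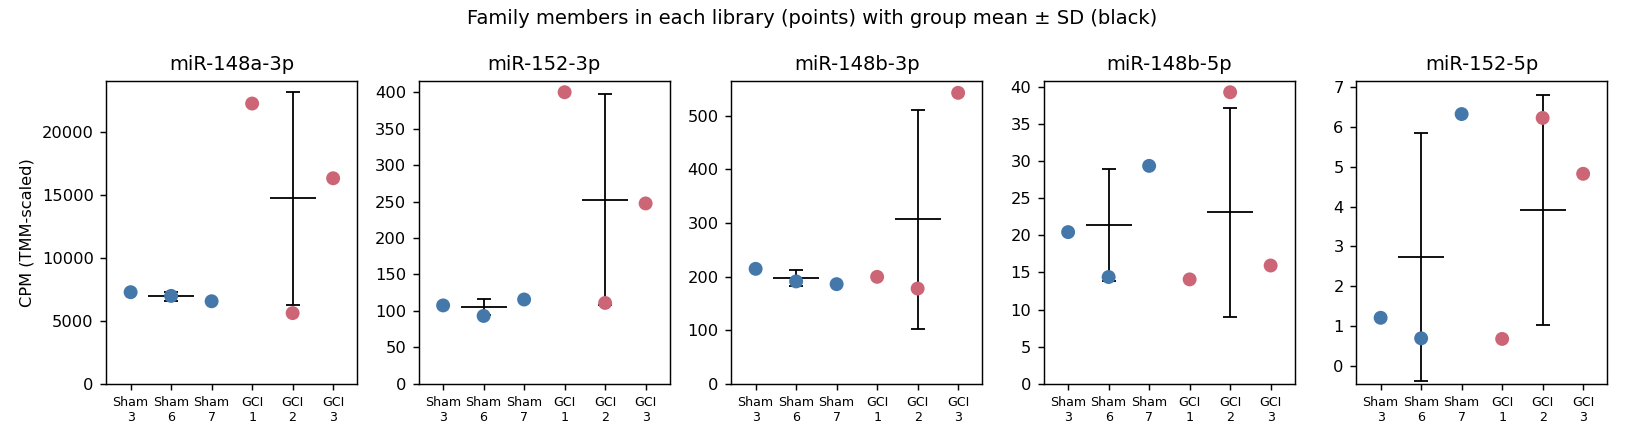
CPM (y axis, linear, a separate scale in each panel) of the 5 family members in the 6 libraries (x axis), with points for libraries, blue for sham and red for GCI, and black bars for the group mean ± SD. miR-148a-3p and miR-152-3p are high in GCI libraries 1 and 3, and miR-148b-3p in GCI library 3, where it reaches 543 CPM.

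The passenger strands were scarce. miR-148b-5p had 34, 21 and 51 counts in sham libraries 3, 6 and 7 and 21, 63 and 33 counts in GCI libraries 1, 2 and 3. In CPM this was 20.4, 14.4 and 29.3 in sham and 14.1, 39.3 and 15.9 in GCI. GCI library 2, the lowest for miR-148a-3p and miR-148b-3p, was thus the highest for this strand. Its log2 fold change was 0.093 ± 0.43 (adjusted p = 0.920, edgeR, Benjamini-Hochberg). miR-152-5p had 2, 1 and 11 counts in the sham libraries and 1, 10 and 10 in the GCI libraries, below 3 counts in 3 of the 6. It did not pass the filter on low counts and was not tested.

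Of the 5 members, 4 passed that filter. By edgeR with Benjamini-Hochberg adjustment over all 440 tested miRNAs, 0 of the 4 passed an adjusted p of 0.05, against 2.27% of all miRNAs. limma-voom called 0 of the 4 and DESeq2 1, against 10 and 26 of the 440. At an unadjusted p under 0.05, edgeR gave miR-148a-3p and miR-152-3p, against 16.8% of all. The sham and GCI libraries overlapped for all 4 tested members, against 21.8% of all miRNAs whose groups did not overlap. All 4 log2 fold changes were above 0, with a median of 0.86, and that of all 440 tested miRNAs was −0.054.

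**Figure D2:**
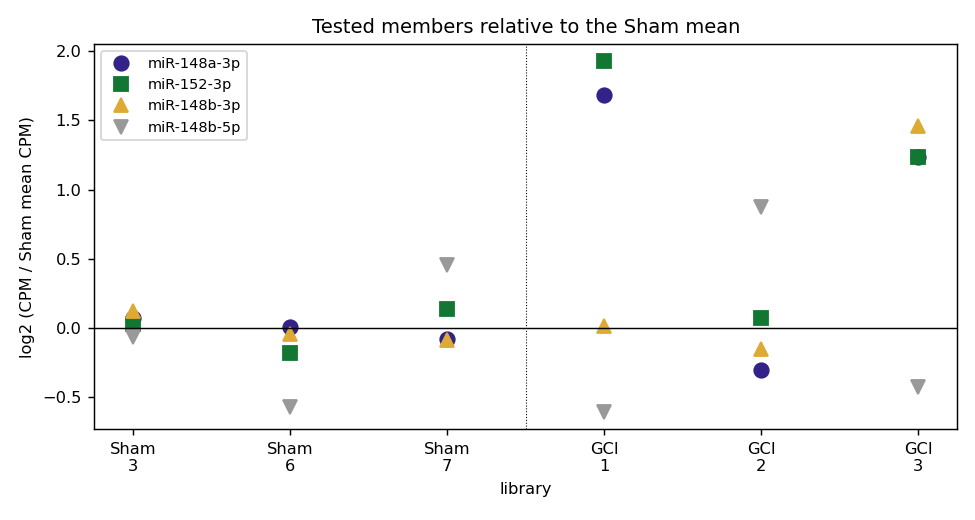
Log2 of each library's CPM over the sham mean (y axis) for the 4 tested members (symbols) in the 6 libraries (x axis), where 0 is the sham mean. The guides of sham libraries lie within 0.18 of 0, miR-152-3p reaches 1.92 in GCI library 1, and all 3 guides stand between 1.23 and 1.46 in GCI library 3.

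The calls for miR-148a-3p and miR-152-3p turned on GCI library 2. Without it, miR-148a-3p had a log2 fold change of 1.47 (adjusted p = 0.00275) and miR-152-3p one of 1.61 (adjusted p = 0.00433), both past the threshold by edgeR with Benjamini-Hochberg adjustment. miR-148b-3p, at 0.92, did not pass (adjusted p = 0.0992, same test). Without this library 12.7% of 456 miRNAs were called higher in GCI, so these calls came with many others. Without GCI library 1, the highest for both, the log2 fold changes were 0.68 for miR-148a-3p (adjusted p = 0.552) and 0.79 for miR-152-3p (adjusted p = 0.397, edgeR, Benjamini-Hochberg).

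**Figure D3:**
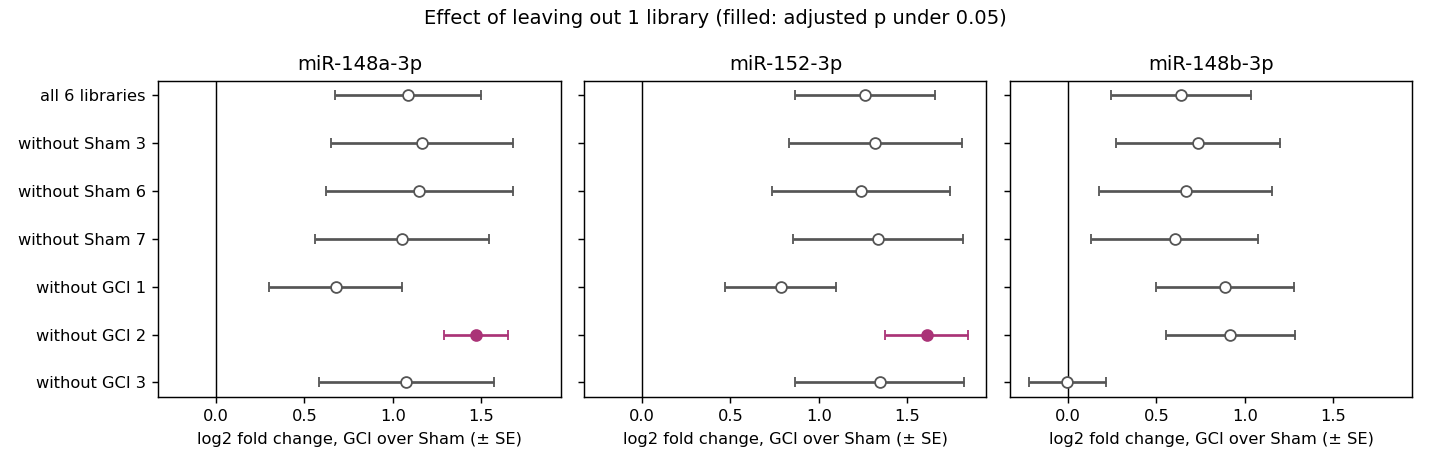
Log2 fold change of GCI over sham with its SE (x axis) for the 3 guide strands, with all 6 libraries and with each library left out (rows), where filled symbols have an adjusted p under 0.05 by edgeR. miR-148a-3p and miR-152-3p pass without GCI library 2, at 1.47 and 1.61, and miR-148b-3p moves to −0.0042 without GCI library 3.

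Together the 3 guides, which offer the same seed to targets, summed to 7591, 7260 and 6851 CPM in sham libraries 3, 6 and 7. In GCI libraries 1, 2 and 3 the sum was 22853, 5897 and 17109 CPM. The sum followed miR-148a-3p, which supplied 95.6% to 96.1% of the guides' counts in sham and 95.1% to 97.4% in GCI. Its share was 97.4% in GCI library 1 (95% Wilson interval 97.2% to 97.5%) and 95.1% in GCI library 2 (94.7% to 95.5%); these intervals cover counting error only. miR-148b-3p supplied 2.63% to 2.83% in sham, but 0.873% in GCI library 1, 3.01% in library 2 and 3.17% in library 3. miR-152-3p supplied 1.28% to 1.69% in sham and 1.45% to 1.88% in GCI. Adapter ligation favours some end sequences, so shares of different miRNAs compare libraries better than they give true proportions.

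Behind miR-148a-3p, the order of the other guides was not the same in every library. miR-148b-3p stood above miR-152-3p in all 3 sham libraries, and the ranges of 186 to 214 CPM and 93.1 to 116 CPM did not overlap. In GCI the ranges of 178 to 543 CPM and 111 to 400 CPM overlapped, and in GCI library 1 miR-152-3p was the higher. The count of miR-152-3p over that of miR-148b-3p, with 0.5 added to each, was 0.502, 0.488 and 0.623 in the sham libraries. It was 2.01, 0.625 and 0.456 in GCI libraries 1, 2 and 3, so that 1 library stood apart. The difference of 0.63 in log2 ratio between the groups was not distinguishable (exact two-sided permutation p = 0.6, where 3 against 3 cannot go below 0.1).

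The ratio of miR-148a-3p to miR-148b-3p was 33.9, 36.5 and 35.2 in sham libraries 3, 6 and 7. In GCI libraries 1, 2 and 3 it was 111, 31.5 and 30.0. The ratio thus lay between 30.0 and 36.5 in 5 libraries and stood apart in GCI library 1 (difference in log2 ratio 0.43, exact two-sided permutation p = 1). The ratio of miR-148a-3p to miR-152-3p varied less, from 56.5 to 74.7 in sham and from 50.4 to 65.8 in GCI (difference in log2 ratio −0.21, exact two-sided permutation p = 0.2).

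**Figure D4:**
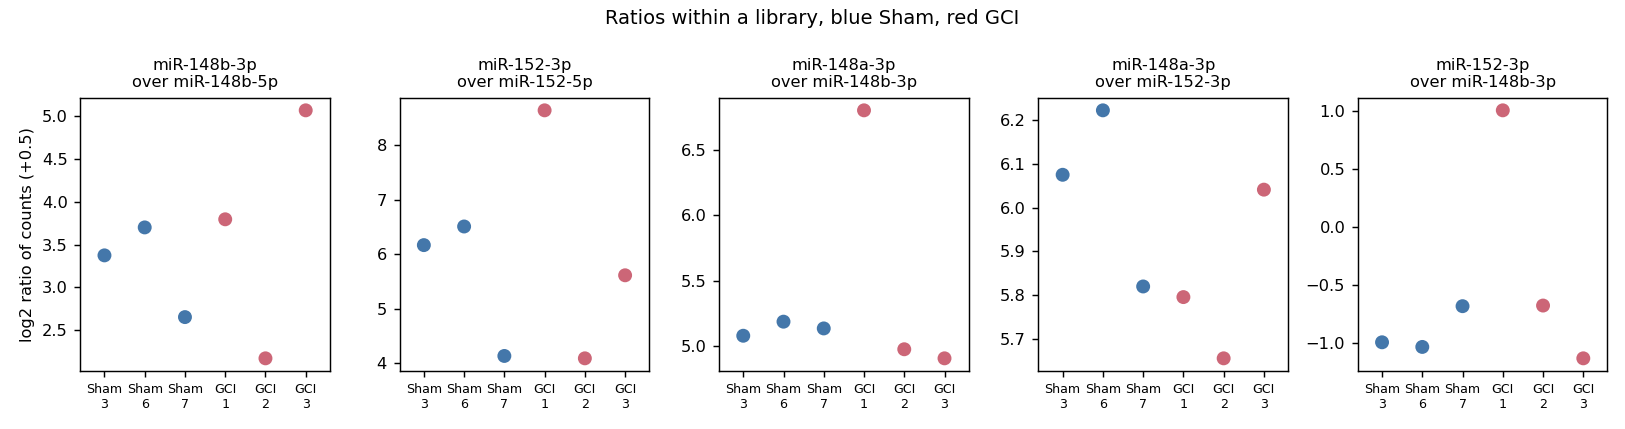
Log2 ratios of counts within a library, with 0.5 added to each count (y axis, a separate scale in each panel), for 2 pairs of strands of a hairpin and 3 pairs of guides in the 6 libraries (x axis), blue for sham and red for GCI. GCI library 1 stands apart where miR-148b-3p is compared with another guide, at a miR-148a-3p to miR-148b-3p ratio of 111.

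Within hairpins, the guide exceeded its passenger in every library. miR-148b-3p over miR-148b-5p was 10.4, 13.0 and 6.28 in sham libraries 3, 6 and 7, and 13.9, 4.50 and 33.6 in GCI libraries 1, 2 and 3. The lowest and the highest ratio were both in GCI, and the groups overlapped (difference in log2 ratio 0.44, exact two-sided permutation p = 0.7). miR-152-3p over miR-152-5p was 17.5 to 91.0 in sham and 17.0 to 399 in GCI (difference in log2 ratio 0.51, exact two-sided permutation p = 0.9). The ratio of 399 rests on 1 count of miR-152-5p in GCI library 1, and that of 91.0 on 1 count in sham library 6.

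The profile of miR-148a-3p over the 6 libraries was most like those of miR-146b-5p and miR-146a-5p, which share a seed of their own and dampen NF-κB signalling, followed by miR-500-3p. The Pearson correlations of log2 CPM were 0.998, 0.997 and 0.980 (n = 6 libraries, given as a description). Over the 4 libraries other than GCI 1 and 3 they were 0.928, 0.956 and 0.894. miR-146a-5p stood at 3289, 3195 and 2587 CPM in the sham libraries and at 13359, 2267 and 9874 CPM in GCI libraries 1, 2 and 3. Its log2 fold change was 1.49 ± 0.51, that of miR-146b-5p 0.57 ± 0.28 and that of miR-500-3p 0.32 ± 0.25 (adjusted p = 0.180, 0.307 and 0.530, edgeR, Benjamini-Hochberg). These miRNAs thus had a like order of libraries with changes of different size.

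For miR-152-3p the most alike were miR-155-5p, a miRNA of activated immune cells, miR-9-3p, the partner strand of the neural miR-9-5p, and miR-217-5p. Their correlations were 0.986, 0.984 and 0.980 over 6 libraries. Over the 4 libraries other than GCI 1 and 3 they were 0.214, 0.647 and 0.736, so the likeness to miR-155-5p rests on those 2 libraries. The CPM of miR-155-5p was 19.8, 17.8 and 17.3 in sham and 67.6, 21.2 and 46.8 in GCI libraries 1, 2 and 3.

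For miR-148b-3p the most alike were the neuronal miR-218-5p, miR-7b-5p and the red blood cell miRNA miR-144-3p, with correlations of 0.973, 0.914 and 0.905 over 6 libraries. Without sham library 3 and GCI library 3 these were 0.928, 0.209 and 0.427. The sham values of miR-218-5p were 4982, 4718 and 4718 CPM, and its GCI values 5448, 4457 and 8122 CPM, again highest in library 3.

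Some markers of other cell types were high in the same GCI libraries as miR-148a-3p and miR-152-3p, while others of the same lists were not. The 3 oligodendrocyte markers summed to 861 to 898 CPM in sham and to 2295, 878 and 1477 CPM in GCI libraries 1, 2 and 3. The sum was carried by miR-219a-2-3p, with 1986, 578 and 1114 CPM in GCI. miR-338-3p, at 153 to 174 CPM in sham, had 226, 156 and 258 CPM in GCI libraries 1, 2 and 3. By contrast, miR-219a-5p was lowest in GCI library 1 (82.3 CPM) and highest in GCI library 2 (143 CPM). The 5 leukocyte and microglia markers summed to 411 to 484 CPM in sham and 740, 419 and 529 CPM in the GCI libraries. Among them miR-142a-3p, miR-142a-5p and miR-155-5p were high in GCI libraries 1 and 3. miR-150-5p had a log2 fold change of 0.046 ± 0.21, and the neutrophil miRNA miR-223-3p one of −0.96 ± 0.77 (adjusted p = 0.920 and 0.540, edgeR, Benjamini-Hochberg). The 3 liver markers, miR-122-5p, miR-192-5p and miR-194-5p, summed to 778 to 1120 CPM in sham and 1745, 1088 and 1346 CPM in GCI. Most of the sum was miR-192-5p, with 1526, 984 and 1235 CPM in GCI libraries 1, 2 and 3. miR-122-5p, at 8.21 to 16.7 CPM in sham, had 63.6, 26.8 and 21.2 CPM there, so library 2 exceeded library 3. miR-194-5p, at 79.4 to 92.6 CPM in sham, had 155, 77.3 and 89.8 CPM.

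The red blood cell markers miR-451a, miR-144-3p and miR-486a-5p summed to 391 to 449 CPM in sham and 405 to 551 CPM in GCI. Of these, miR-486a-5p stood at 91.5 to 110 CPM in sham and at 274, 126 and 195 CPM in GCI libraries 1, 2 and 3. The other members did not follow it: miR-451a had a log2 fold change of −0.17 ± 0.19 and miR-144-3p one of 0.040 ± 0.25, with overlapping groups. All 4 neuronal markers had log2 fold changes below 0, from −0.48 to −0.048. miR-128-3p stood at 7735 to 8574 CPM in sham and at 4591, 7363 and 5627 CPM in GCI libraries 1, 2 and 3, and was thus lowest where miR-148a-3p was highest. miR-138-5p was also lower in GCI without overlap, at 1461 to 1828 CPM in sham and 1148 to 1450 CPM in GCI. Neither passed (adjusted p = 0.294 for miR-128-3p and 0.353 for miR-138-5p, edgeR, Benjamini-Hochberg). The groups of miR-486a-5p, miR-128-3p and miR-138-5p did not overlap, nor did those of 21.8% of all tested miRNAs. Unlike miR-128-3p, the markers miR-124-3p, miR-9-5p and miR-138-5p had their highest GCI values in library 1, at 16353, 73457 and 1450 CPM. The vessel wall markers summed to 35185 to 49835 CPM in sham and 26815 to 45231 CPM in GCI, mostly from miR-143-3p. Their log2 fold changes were −0.33 for miR-143-3p, −0.051 for miR-145a-5p, 0.13 for miR-126a-3p and 0.29 for miR-126a-5p. The choroid plexus markers summed to 1637 to 1891 and 1673 to 1972 CPM, mostly from miR-1298-5p. Its log2 fold change was 0.14, while those of miR-204-5p and miR-211-5p were −0.34 and −0.35.

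The sum of the 10 epithelial and pituitary markers, unlike that of the family's guides, was high in all 3 GCI libraries. It was 2066 to 7300 CPM in sham and 51179, 22184 and 27385 CPM in GCI. Its members were not higher by the same amount, and miR-203-3p and miR-375-3p lay only just above the sham range in GCI library 2. miR-203-3p had 47.9 to 64.5 CPM in sham and 176, 67.9 and 111 CPM in GCI libraries 1, 2 and 3. miR-375-3p had 28.8 to 44.9 CPM in sham and 79.7, 46.7 and 48.7 CPM in GCI. Over all miRNAs edgeR (Benjamini-Hochberg) called 8 of these 10 markers, all higher, and 0 members of the other lists. At an unadjusted p under 0.05 it gave, in those other lists, 1 of 3 oligodendrocyte, 2 of 5 leukocyte, 1 of 3 red blood cell and 2 of 3 liver markers. The neuronal, vessel wall, choroid plexus and muscle lists had 0. Of all tested miRNAs, 16.8% were under this p. limma-voom called 8 of the 10 and 0 in the other lists. DESeq2 called 9 of the 10, along with miR-155-5p, miR-122-5p and miR-486a-5p. Of all 440 tested miRNAs, edgeR and limma-voom each called 10 and DESeq2 called 26. The part of these cell types in the family's values was not tested.

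Of 9 miRNAs outside the family that are reported to repress DNA methyltransferases, all tested, 0 were called higher and 0 lower by edgeR with Benjamini-Hochberg adjustment. At an unadjusted p under 0.05 edgeR gave 0, and DESeq2 and limma-voom called 0. Of all tested miRNAs, edgeR called 2.27% after adjustment and gave 16.8% at the unadjusted p. Of the 9, 3 had log2 fold changes above 0 and 6 below, with a median of −0.067 beside −0.054 for all tested miRNAs. miR-29b-3p, which represses Dnmt3a and Dnmt3b, had 5550, 5625 and 5252 CPM in sham and 3482, 4474 and 4403 CPM in GCI, in the order of libraries above. Its groups did not overlap, with GCI lower, and its log2 fold change was −0.41 ± 0.19 (edgeR adjusted p = 0.294 by Benjamini-Hochberg). miR-29a-3p, of the same seed, averaged 9260 ± 199 CPM in sham and 7258 ± 2038 CPM in GCI (SD, n = 3 each). miR-185-5p, reported to repress Dnmt1, averaged 327 ± 13.7 and 397 ± 9.48 CPM, and its groups did not overlap either. These 2 of the 9 compare with 21.8% of all tested miRNAs whose groups did not overlap. Its log2 fold change was 0.28 ± 0.18 (edgeR adjusted p = 0.420 by Benjamini-Hochberg). miR-143-3p, a smooth muscle miRNA reported to repress Dnmt3a, had means of 39285 ± 7586 CPM in sham and 31321 ± 8785 CPM in GCI. Over all 6 libraries the most abundant of the list was miR-101a-3p, with 79971 ± 6194 CPM in sham and 86283 ± 23239 CPM in GCI. miR-101b-3p averaged 38321 ± 1671 CPM in sham, below miR-143-3p, and 36580 ± 6739 CPM in GCI, above it.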

How the data were processed

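Total RNA was extracted with TRIzol and small RNA libraries were made with the NEBNext small RNA kit and size-selected, per the labels' protocols. Per the submitters' processing notes, cutadapt and Bowtie were used; no version, build or miRNA reference is stated. The authors deposited raw counts of reads for each mature miRNA, as whole numbers with unequal totals show. Repeated names were reduced to the row with the highest total. Counts were tested with edgeR 4.0.16 (R 4.3.3) by the quasi-likelihood test with group alone, after filterByExpr (minimum count 10, minimum total 15) and TMM scaling, on 440 miRNAs with Benjamini-Hochberg adjustment. The biological coefficient of variation was 25.3%. The script was tested on simulated counts. Ratios within a library were compared by exact permutation (scipy 1.17.1). Alternatives were other scalings and filters, DESeq2 1.42.0, limma-voom (limma 3.58.1), robust estimation, summed repeats, a pseudocount of 2 and each library left out. Members and lists were chosen with earlier results of these data known. The named miRNAs are all members, the 3 most correlated with each guide, and of the DNA methyltransferase list the 4 with the smallest p and the 2 most abundant. Hairpin and UTR annotation is from GENCODE vM21.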

Additional observations from a re-analysis of the deposited data

How the results depend on the processing

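With each library left out, log2 fold changes ranged from 0.68 to 1.47 for miR-148a-3p, 0.79 to 1.61 for miR-152-3p, −0.0042 to 0.92 for miR-148b-3p and −0.52 to 0.40 for miR-148b-5p, and the log2 difference of the summed guides from 0.49 to 1.45. miR-148b-3p turned negative without GCI library 3, and miR-148b-5p without sham library 6 (−0.066), without GCI library 2 (−0.52) and with limma-voom (−0.014). With the other settings, miR-148a-3p kept its direction at 0.87 to 1.15 and did not pass (adjusted p 0.0862 to 0.310), and miR-152-3p passed with DESeq2 alone (1.32, adjusted p = 0.0372; adjusted p up to 0.254 elsewhere). The count of miRNAs called, 10, was 4 with RLE scaling or without the 5 most abundant miRNAs, 26 with DESeq2, and 0 to 100 with a library left out. Differences in log2 ratio with a library left out ranged from −0.19 to 0.75 for miR-148a-3p over miR-148b-3p, −0.32 to −0.12 for miR-148a-3p over miR-152-3p, −0.0012 to 1.07 for miR-152-3p over miR-148b-3p, −0.26 to 1.19 for the miR-148b strands and −0.75 to 1.52 for the miR-152 strands. The last turned negative without sham library 7 (−0.22) or GCI library 1 (−0.75), the miR-148b strands without GCI library 3, and both guide ratios with miR-148b-3p without GCI library 1. The cause of these changes was not tested. No paired analysis was possible because the groups share 1 replicate number. With 3 libraries a group and 35 counts of miR-152-5p in all, depth limits the miR-152 strand ratio.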

Other observations

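The passenger strand miR-148b-5p was highest in libraries where its guide was not, a pattern noticed after the values were seen. It was highest in GCI library 2 (39.3 CPM) and sham library 7 (29.3 CPM), where miR-148b-3p had its lowest values, 178 and 186 CPM. miR-152-5p was also highest in sham library 7 (6.33 CPM) and GCI library 2 (6.23 CPM). It had as many counts, 10, in GCI library 3 as in GCI library 2, though miR-148b-5p was low in GCI library 3 (15.9 CPM), so the passenger strands did not share 1 order. With 1 to 11 counts per library, the order of miR-152-5p among libraries is weakly determined.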
